A study of Mus musculus with 33 samples.

Results

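The genes described here are 10 functional VK genes of the VK5 and VK12 families of the mouse *Igk* locus, taken by name from the 163 VK genes listed in each library. The VK5 members were IGKV5-37, IGKV5-39, IGKV5-43, IGKV5-45 and IGKV5-48, and the VK12 members were IGKV12-38, IGKV12-41, IGKV12-44, IGKV12-46 and IGKV12-98. Both families hold 18 of the 163 listed genes, and the 8 that were not members were the functional gene IGKV12-89 and 7 pseudogenes. The members are defined by name and not by a measured value. VDJ-seq captures joined VK and JK segments from genomic DNA and reads which VK gene each joint contains, and each value is given here as the percentage of all VK-JK joints of its library. The data were 20 such libraries from C57BL/6 mice aged 4 to 5 weeks, made from pro-B cells (Kit+CD25-) and pre-B cells (Kit-CD25+) that were sorted from bone marrow as B220+IgM-IgD- cells and used without culture. There were 6 pro-B libraries of *Wapl*(+/+) mice, 6 pro-B libraries of *Wapl*(dP1,2/dP1,2) mice, and 4 pre-B libraries of each genotype. A further library, H3K27ac ChIP-seq of pro-B cells of a different genotype, *Rag1*(Cre/Cre), was used only for the positions of its peaks. The *Wapl*(dP1,2/dP1,2) mice lack P1, a site in the *Wapl* promoter that Pax5 binds, and a region downstream of the *Wapl* gene with a second such site, P2. This deletion is carried in the germline by every cell of the mouse, so it was not limited to the sorted cells, and the *Wapl*(+/+) mice carry neither change. Wapl releases cohesin from chromatin, and the comparison of genotypes asks whether the use of VK genes depends on how much Wapl early B cells hold. VDJ-seq reads rearranged DNA only, so neither *Wapl* itself nor the markers that define pro-B and pre-B cells can be checked in these values.

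A kappa light chain gene is assembled when the RAG recombinase cuts beside a VK gene and a JK element and the broken ends are joined. The cut is placed by a recombination signal sequence, made of a heptamer, a spacer and a nonamer, directly after the VK gene. A VK gene that lies in the same orientation as the JK elements joins by deletion of the DNA between them, and a VK gene in the reverse orientation joins by inversion of that DNA. Kappa recombination belongs mainly to the pre-B stage, and pro-B cells carry few kappa joints. Members of 1 VK family are products of gene duplication and resemble each other in sequence.

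The signal sequences are shown first because they are the part of each gene that RAG reads, and because the members differed in them. Each was read from the NCBIM37 (mm9) genome as the 28 bases after the end of the gene, in the direction of the gene. Capitals mark the heptamer of 7 bases and the nonamer of 9 bases, and the spacer of 12 bases is in lower case.
IGKV5-37: CACAGTGatgcagaccataGCAAAAACC
IGKV5-39: CACAATGatgcagaccataGCAAAAACC
IGKV5-48: CACAGTGatgcagaccataGCAAAAATC
IGKV12-44: CACAGTGattcaagccatgACATAAACC
IGKV12-98: CACAGTGattcaagccataACATAAACC
IGKV12-89: CACAGTGattcaagccatgACATAAATC
These lie on mm9 at chr6:69913278-69913305 (minus strand) for IGKV5-37, at chr6:69850390-69850417 (minus) for IGKV5-39, at chr6:69676539-69676566 (minus) for IGKV5-48, at chr6:69764597-69764624 (minus) for IGKV12-44, at chr6:68521230-68521257 (plus) for IGKV12-98 and at chr6:68784812-68784839 (minus) for IGKV12-89. IGKV5-43 and IGKV5-45 had the same 28 bases as IGKV5-48. IGKV12-38, IGKV12-41 and IGKV12-46 had the same 28 bases as IGKV12-44, and so had the pseudogene IGKV12-40.

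Positions in these sequences are counted from 1 at the first base of the heptamer, against the consensus heptamer CACAGTG and the consensus nonamer ACAAAAACC. All 5 VK5 members carried A20G in the nonamer. IGKV5-43, IGKV5-45 and IGKV5-48 carried C27T in addition, and IGKV5-39 was the 1 member with a changed heptamer, G5A. All 5 VK12 members carried A23T in the nonamer and no other change. The heptamer CACAGTG followed the gene directly in 9 of the 10 members and in 81.5% of the 92 functional VK genes. The nonamer GCAAAAATC was found at 3.26% of the functional genes, all 3 of them members, and the nonamer ACATAAACC at 19.6% of them, 5 of them members. The spacer of IGKV5-37 was found at 5.43% of the functional genes, and these were the 5 VK5 members. The search used the strand of each gene and the window directly after its end, and a match describes these letters only.

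In the locus, 9 members formed 1 cluster of 237.3 kb on chromosome 6, from IGKV5-37 at chr6:69913306-69913855 to IGKV5-48 at chr6:69676567-69677119 in mm9. IGKV5-37 was the member nearest to the JK elements, 740.3 kb from IGKV3-1, and IGKV5-48 lay 977.1 kb from IGKV3-1. Between them came, in this order, IGKV12-38, IGKV5-39, IGKV12-41, IGKV5-43, IGKV12-44, IGKV5-45 and IGKV12-46, with 4 pseudogenes in between. All 9 lie in reverse orientation to the JK elements. IGKV12-98 lies at chr6:68520757-68521229, 1155 kb farther away than IGKV5-48, in the same orientation as the JK elements. The annotation (GENCODE vM1) gives each member 2 exons, the leader exon and the V exon, except IGKV5-39, for which it gives 1.

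Sequence identity limits how far the most similar members can be told apart. Over the last 280 bases of the gene, pairs within VK5 were between 81.4% and 98.9% identical, pairs within VK12 between 81.1% and 95.4%, and pairs of a VK5 with a VK12 member between 62.9% and 66.9%. IGKV5-43 and IGKV5-45 were the closest pair, with 3 differing bases, and the next closest, IGKV12-41 and IGKV12-44, had 13. The ends of the V exons, next to the joint, show which of these genes a read can separate there.
IGKV5-43: tttctgtcaacagagtaacagctggcctca
IGKV5-45: tttctgtcaacagagtaacagctggcctca
IGKV5-48: ttactgtcaacaaagtaatagctggccaac
These are the last 30 bases, at chr6:69773349-69773378 for IGKV5-43, chr6:69725744-69725773 for IGKV5-45 and chr6:69676567-69676596 for IGKV5-48, all on the minus strand of mm9. IGKV5-43 and IGKV5-45 were identical there and IGKV5-48 was not. The values of IGKV5-43 and IGKV5-45 are therefore uncertain as a division of reads between them, because how shared reads were assigned is not given in the sources used here. The ratio of IGKV5-43 to IGKV5-45 was 1.04 ± 0.053 in *Wapl*(+/+) and 1.05 ± 0.036 in *Wapl*(dP1,2/dP1,2) pre-B cells (SD, n = 4 each), and 0.909 ± 0.137 and 0.751 ± 0.213 in pro-B cells (n = 6 each).

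The libraries differed in how finely they resolved a gene. For each library, a step was set as the largest one found for which all values were multiples of 1/6 of it and their sum a whole number of steps. These properties define the step, so they are no check of it. The sum of all values was between 27178 and 56642 steps in the 8 pre-B libraries, between 2016 and 6892 in the mutant pro-B libraries, and between 1191 and 2514 in 5 of the 6 *Wapl*(+/+) pro-B libraries. The other one, *Wapl*(+/+) pro-B replicate 2, held 164 steps, so that 1 step was 0.610% of its joints. It stood apart from the rest of its group and is shown as an open symbol in the plots, and results that rest on it are given with and without it. The number of molecules behind a step is not given, so no counting interval was computed. The labels number the libraries by experiment, and by their leading digits these numbers fall, in each cell type, into a lower-numbered and a higher-numbered series with equal numbers of both genotypes. Nothing in the labels says what the series mark. The p-values below measure the spread between these libraries, which were independent experiments according to the figure legends of the study.

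In *Wapl*(+/+) pre-B cells, the 10 members together took 11.3%, 11.6%, 12.3% and 11.9% of all VK-JK joints, a mean of 11.8% ± 0.456 (SD, n = 4). IGKV12-44 was the most used member, with 2.14%, 2.10%, 2.32% and 2.15% of joints, and ranked as number 4 of the 163 VK genes by its mean of 2.18% ± 0.095. Its 4 values lay above all values of the next member, IGKV12-46, at 1.73% ± 0.090. IGKV5-43 followed at 1.57% ± 0.080 and IGKV5-45 at 1.51% ± 0.111, and these near-identical genes overlapped each other. IGKV12-46 overlapped IGKV5-43 in range, although it was the higher of both in 4 of 4 libraries. IGKV12-41 (1.31% ± 0.096), IGKV5-39 (1.25% ± 0.048) and IGKV5-48 (1.15% ± 0.058) formed a middle group whose neighbours overlapped. Below them, and separate from each other in every library, came IGKV12-98 (0.532% ± 0.042), IGKV12-38 (0.396% ± 0.025) and IGKV5-37 (0.143% ± 0.028). The 2 genes at the JK-proximal end of the cluster were thus its least used genes. IGKV12-38 and IGKV12-44, at 0.396% and 2.18%, have identical signal sequences of 28 bases. IGKV5-43, IGKV5-45 and IGKV5-48 also shared 1 signal sequence, and their means lay between 1.15% and 1.57%.

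**Figure D1:**
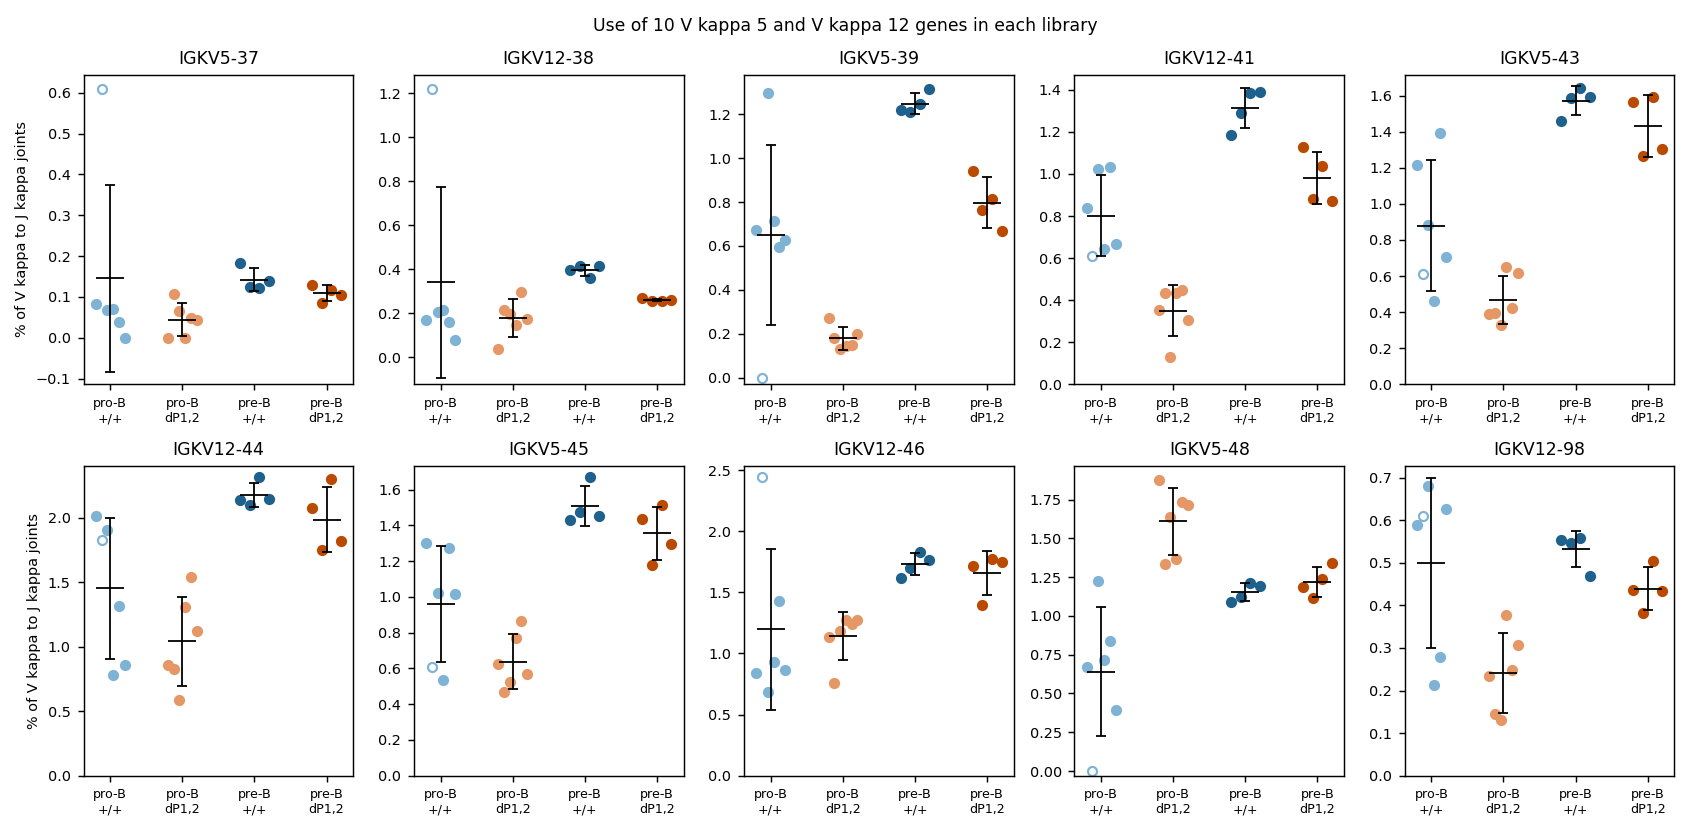
Percentage of all VK-JK joints (vertical axes, linear, scale differs between panels) for each of the 10 genes in each library, by group. Points are libraries, the long bar is the mean and the thin bar ± 1 SD, and the open point is the *Wapl*(+/+) pro-B library with 164 steps. IGKV5-48 is the 1 gene whose 6 mutant pro-B libraries, from 1.34% to 1.87%, lie above all 6 *Wapl*(+/+) pro-B libraries.

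The VK5 and the VK12 members of the cluster contributed nearly equally to this total in pre-B cells. In *Wapl*(+/+) pre-B cells their mean sums were 5.62% for VK5 and 5.61% for VK12. The pseudogene IGKV12-40, which lies in the cluster and took 0.800% ± 0.024 of joints there, is not a member and is left out. Counting it would put the VK12 sum above the VK5 sum. Summed over the 4 VK12 members of the cluster and the 5 VK5 members, the ratio of VK12 to VK5 joints was 0.993, 0.998, 0.999 and 1.00 in the 4 *Wapl*(+/+) pre-B libraries. It was 0.986, 0.971, 1.02 and 0.997 in the 4 mutant pre-B libraries. In pro-B cells the ratio was 0.920 ± 0.143 (SD, n = 6) in the mutant and 0.941 ± 0.070 (n = 5) in *Wapl*(+/+) cells without replicate 2, and 3.33 in replicate 2 itself. Apart from replicate 2, single pro-B libraries had ratios between 0.753 and 1.09.

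**Figure D2:**
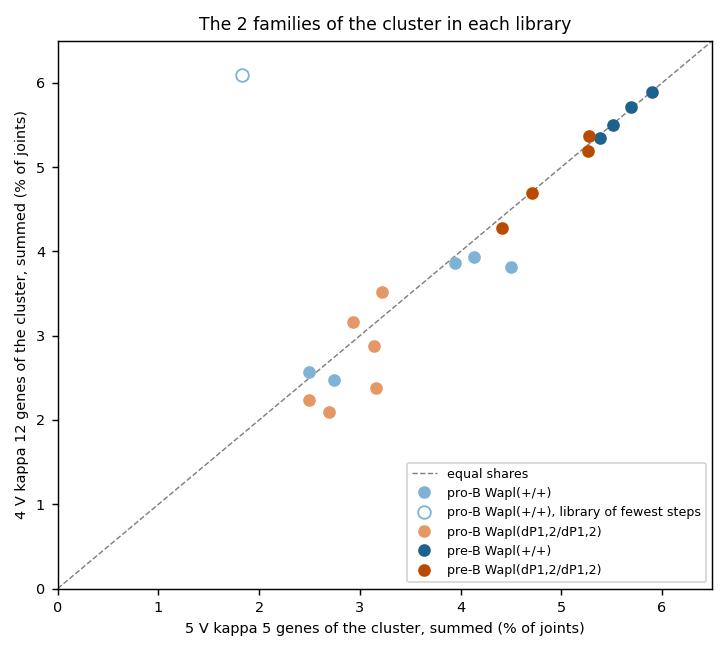
Summed percentage of all VK-JK joints of the 5 VK5 genes of the cluster (horizontal) against that of its 4 VK12 genes (vertical), 1 point per library. Points on the dashed line have equal sums. The pre-B libraries lie on or close to it, the pro-B libraries lie at lower totals around it, and the open point, the library with 164 steps, lies far off it.

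The first genotype comparison asked how use of these genes differed in pre-B cells with the *Wapl* deletion. The 10 members took 10.9%, 9.08%, 11.1% and 9.84% of joints in the mutant libraries, a mean of 10.2% ± 0.956 against 11.8% ± 0.456 in *Wapl*(+/+). Each mutant library lay below all 4 *Wapl*(+/+) libraries, and the difference of means, mutant minus *Wapl*(+/+), was -1.44 percentage points in the lower-numbered series and -1.62 in the higher-numbered series. By limma with Benjamini-Hochberg adjustment over the 107 VK genes tested, 4 of the 10 members fell, namely IGKV12-38, IGKV5-39, IGKV12-41 and IGKV12-98, and 0 rose. The first 3 lie next to each other in the JK-proximal part of the cluster. Of all genes tested, 67.3% were called, 45.8% as lower and 21.5% as higher, so that 4 of 10 lowered members is close to the share of lowered genes in the whole locus. The median log2 difference was -0.20 over the members and -0.18 over all 107 genes.

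IGKV5-39 fell most among the members. It took 1.22%, 1.21%, 1.25% and 1.31% of joints in the *Wapl*(+/+) libraries and 0.942%, 0.765%, 0.814% and 0.667% in the mutant libraries, so the groups did not overlap. Its log2 difference, mutant minus *Wapl*(+/+), was -0.62 ± 0.093 (SE, limma adjusted p = 2.28e-05). IGKV12-38, at the JK-proximal side of it, took 0.397%, 0.413%, 0.359% and 0.414% in *Wapl*(+/+) and 0.270%, 0.258%, 0.256% and 0.259% in mutant pre-B cells. These groups did not overlap either, and the log2 difference was -0.52 ± 0.090 (limma adjusted p = 0.000101). IGKV12-41, on the other side, took 1.18%, 1.29%, 1.39% and 1.39% against 1.13%, 0.883%, 1.04% and 0.869%, with a log2 difference of -0.41 ± 0.092 (limma adjusted p = 0.00108). Groups did not overlap in these 3 members, all lower, while 38.3% of all genes tested were lower and 20.6% higher without overlap. IGKV12-98, the isolated gene in direct orientation, overlapped between the groups, with 0.532% ± 0.042 against 0.439% ± 0.050 and a log2 difference of -0.25 ± 0.098 (limma adjusted p = 0.0303).

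The 5 members of the JK-distal part of the cluster did not pass the test. Their log2 differences were -0.14 for IGKV5-43, -0.14 for IGKV12-44, -0.15 for IGKV5-45, -0.06 for IGKV12-46 and 0.08 for IGKV5-48, the 1 member with a value above 0. For IGKV5-48 the 95% interval reached from -0.09 to 0.24, with 1.09%, 1.12%, 1.21% and 1.19% of joints in *Wapl*(+/+) and 1.19%, 1.11%, 1.23% and 1.34% in mutant cells. IGKV5-37, the most proximal and least used member, had a log2 difference of -0.27 ± 0.124 and an adjusted p = 0.0641 by limma. Across the 9 genes of the cluster, the log2 difference correlated with gene order from the JK side at Pearson r = 0.84 and Spearman rho = 0.82, against r = -0.18 and rho = -0.12 over the 92 functional VK genes tested. These are descriptions across genes that share the same libraries, and genes are not replicates. When all 20 libraries entered 1 fit, which adds the wider spread of the pro-B libraries, none of the 4 calls held, with adjusted p between 0.562 and 0.794. The call of IGKV12-98 was also lost when any of 4 single libraries was left out (*Wapl*(+/+) replicates 1, 2 and 3 and mutant replicate 2, adjusted p from 0.078 to 0.114), in the higher-numbered series alone (log2 difference -0.12, adjusted p = 0.506), after median centring (0.0585) and without the 2 most used VK genes (0.0518), and IGKV12-41 had an adjusted p = 0.0694 in the lower-numbered series alone.

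**Figure D3:**
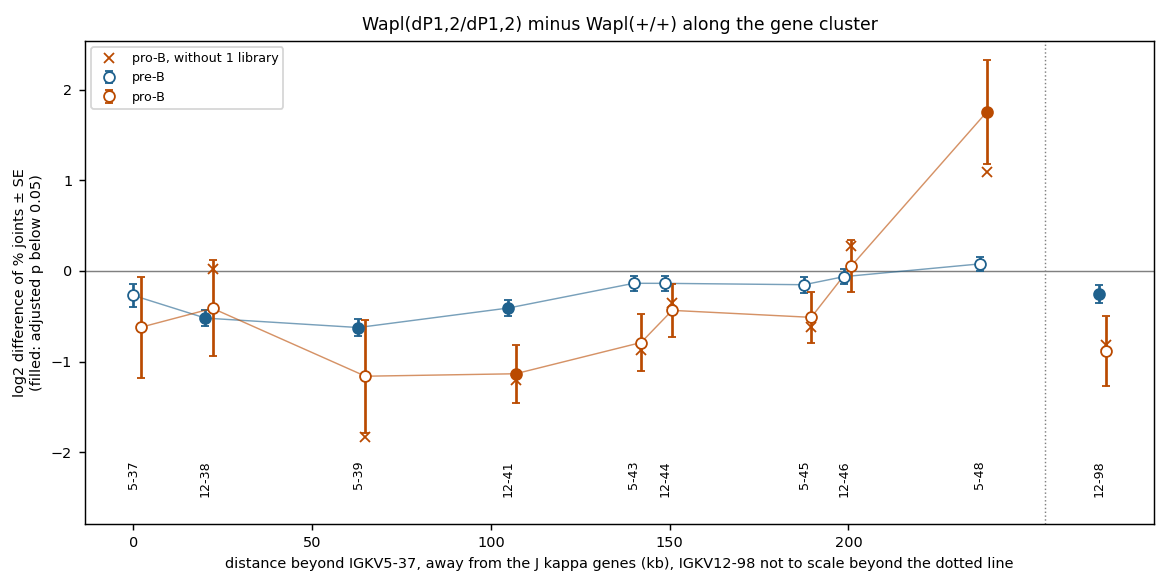
Log2 difference of the percentage of joints (limma, mutant minus *Wapl*(+/+), ± SE) for the 10 genes against distance (kb) from IGKV5-37, with IGKV12-98 not to scale beyond the dotted line, in pre-B (blue) and pro-B cells (orange). Filled points have an adjusted p below 0.05, and crosses are pro-B values without the library with 164 steps. Pre-B values rise from -0.62 at IGKV5-39 to 0.08 at IGKV5-48, and the pro-B value of IGKV5-48, 1.75, stands above those of the other genes.

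The second genotype comparison asked the same question in pro-B cells, where kappa joints are rare. Here IGKV5-48, the gene at the JK-distal end of the cluster, rose and IGKV12-41 fell in the mutant. These 2 members were called by limma among 10 tested, where 26.0% of all 104 genes tested were called, 12.5% as higher and 13.5% as lower. The median log2 difference was -0.57 over the members and -0.26 over all genes tested. Of the 10 members, 8 had a value below 0. Among these, IGKV5-37 passed the filter only through *Wapl*(+/+) pro-B replicate 2, where it took 0.610% of joints. Without that library its mean was 0.0526% in *Wapl*(+/+) and 0.0446% in mutant cells, too low to be tested. IGKV12-38, also among the 8, had a log2 difference of 0.022 without that library.

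IGKV5-48 took between 1.34% and 1.87% of joints in the 6 mutant libraries (median 1.68%) and between 0% and 1.23% in the 6 *Wapl*(+/+) libraries (median 0.692%). Every mutant library lay above every *Wapl*(+/+) library, which held for 8.65% of all genes tested in this direction. The means were 1.61% ± 0.216 and 0.640% ± 0.415 (SD, n = 6 each), and the log2 difference was 1.75 ± 0.58 (limma adjusted p = 0.0373), number 5 among all genes tested when ordered from the largest rise. The lowest value, 0%, came from the library with 164 steps. Without it, the *Wapl*(+/+) mean was 0.768% ± 0.303 (n = 5) and the log2 difference fell to 1.09, with a limma adjusted p = 0.000237. The difference in means was 0.984 percentage points in the lower-numbered series, or 0.668 without that library, and 0.958 in the higher-numbered series. The call is close to the threshold with all libraries, since leaving out *Wapl*(+/+) replicate 6 or any 1 of the 6 mutant libraries gave an adjusted p between 0.0546 and 0.0714. It was also lost with a pseudocount of 0.01 (log2 difference 2.17, adjusted p = 0.105) and in the lower-numbered series alone (2.20, adjusted p = 0.225), and was kept in the higher-numbered series alone (1.30, adjusted p = 0.00725).

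IGKV12-41 took between 0.131% and 0.446% of joints in the mutant libraries (median 0.392%) and between 0.610% and 1.03% in the *Wapl*(+/+) libraries (median 0.753%). The groups did not overlap, as for 6.73% of all genes tested in this direction. The log2 difference was -1.13 ± 0.318 (limma adjusted p = 0.0206), and -1.20 without the library with 164 steps (adjusted p = 0.0013). The call was lost in each series alone, at -1.39 in the lower-numbered (adjusted p = 0.208) and -0.88 in the higher-numbered series (adjusted p = 0.0841). IGKV5-39, which fell most in pre-B cells, took between 0.131% and 0.273% in mutant and between 0% and 1.29% in *Wapl*(+/+) libraries. The 0% again came from the library with 164 steps, and the other 5 *Wapl*(+/+) libraries lay between 0.597% and 1.29%, above all mutant libraries. With all libraries its log2 difference was -1.16 ± 0.62 (limma adjusted p = 0.191), and without that library it was -1.83 (adjusted p = 3.84e-05).

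Without the library with 164 steps, 5 of the 9 members tested were called, 1 higher (IGKV5-48) and 4 lower (IGKV5-39, IGKV12-41, IGKV5-43 and IGKV5-45), beside 47.1% of the 104 genes tested, 17 higher and 32 lower. IGKV5-43 then had a log2 difference of -0.87 (adjusted p = 0.0116) and IGKV5-45 of -0.62 (adjusted p = 0.041), and IGKV5-37 was too low to be tested. The 2 remaining VK12 genes in the distal part, IGKV12-44 and IGKV12-46, did not pass the test in either case, with log2 differences of -0.43 and 0.05 with all libraries. IGKV12-38, at -0.41 with all libraries, was at 0.02 without that 1 library, in which it had reached 1.22% against at most 0.214% in the other 5. IGKV12-98 had a log2 difference of -0.88 ± 0.386 (limma adjusted p = 0.101), with 0.240% ± 0.094 in mutant and 0.500% ± 0.20 in *Wapl*(+/+) cells.

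Summed over the 10 members, the mutant pro-B libraries held between 4.88% and 6.99% of joints (median 6.05%, mean 5.89% ± 0.864) and the *Wapl*(+/+) libraries between 5.28% and 8.99% (median 8.37%, mean 7.57% ± 1.58). The groups overlapped, and the lower mutant mean came from 1 series. The difference of means was -3.45 percentage points in the lower-numbered series, which includes the library with 164 steps, and 0.109 in the higher-numbered series, so the difference did not hold within both. For IGKV12-44 it was -1.16 in the lower-numbered and 0.335 in the higher-numbered series. For IGKV12-41 it was -0.518 and -0.384 percentage points, and for IGKV5-39 -0.460 and -0.482, with mutant means below *Wapl*(+/+) means in both series. Without the library with 164 steps, the values of the lower-numbered series were -3.50 for the sum, -1.20 for IGKV12-44, -0.63 for IGKV12-41 and -0.788 for IGKV5-39. Centring each library on its median log2 value moved the log2 differences up by 0.33 in this comparison. IGKV5-48 then had a log2 difference of 2.09 (limma adjusted p = 0.0174), IGKV12-41 of -0.80 (adjusted p = 0.0563), and the share of higher genes among all called genes went from 48.1% to 77.3%.

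Because each percentage depends on all other VK genes, the cluster was also described by its own composition, the share of each gene among the joints of the 9 clustered genes. In *Wapl*(+/+) pre-B cells IGKV5-48 made up 10.1%, 10.2%, 10.3% and 10.5% of these joints. In mutant pre-B cells it made up 11.4%, 12.8%, 11.6% and 14.3%, above all 4 *Wapl*(+/+) libraries. In pro-B cells it made up between 0% and 14.8% in *Wapl*(+/+) libraries (between 7.52% and 14.8% without the library with 164 steps) and between 22.4% and 34.2% in mutant libraries. The mean share in mutant pro-B cells, 28.8% ± 4.6, made IGKV5-48 the most used gene of the cluster there, and its values in percent of all joints were separate from those of the next gene, IGKV12-46, at 1.14% ± 0.197.

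For IGKV5-39, in the proximal part, the shares were lower in the mutant. It made up 11.1% ± 0.429 of the joints of the cluster in *Wapl*(+/+) pre-B cells and 8.14% ± 0.924 in mutant pre-B cells (n = 4 each). In mutant pro-B cells it made up 3.23% ± 1.02 (n = 6), and in *Wapl*(+/+) pro-B cells 11.5% ± 3.50 without the library with 164 steps (n = 5). The composition of *Wapl*(+/+) pro-B cells without that library was thus near that of *Wapl*(+/+) pre-B cells for IGKV5-39, IGKV12-41 (12.3% and 11.7%) and IGKV5-48 (11.1% and 10.3%). The ratio of the 5 distal genes (IGKV5-43 to IGKV5-48) to the 4 proximal genes (IGKV5-37 to IGKV12-41) was 2.63 ± 0.117 in *Wapl*(+/+) and 3.58 ± 0.338 in mutant pre-B cells. It was 2.70 ± 0.611 in *Wapl*(+/+) and 6.73 ± 1.46 in mutant pro-B cells, or 2.79 ± 0.638 in *Wapl*(+/+) cells without the library with 164 steps. In both cell types all mutant ratios lay above all *Wapl*(+/+) ratios. The border between proximal and distal genes was set after the values were seen, so these ratios were not tested.

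**Figure D4:**
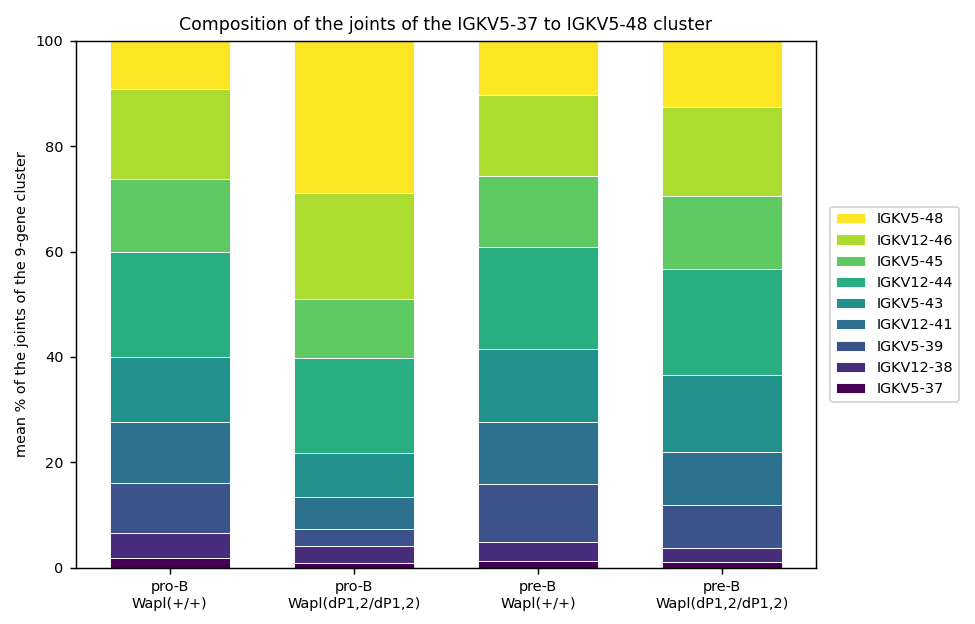
Mean share (%) of each of the 9 clustered genes among the joints of the cluster, stacked from the JK-proximal gene (bottom, IGKV5-37) to the JK-distal gene (top, IGKV5-48), in the 4 groups with all libraries. IGKV5-48 takes 9.22% and 28.8% in *Wapl*(+/+) and mutant pro-B cells, and 10.3% and 12.5% in pre-B cells.

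The difference between these genotype differences, pro-B minus pre-B, was tested in 1 model of all 4 groups. No member was called, 0 of 10, and 1.89% of the 106 genes tested were called by limma, all lower. At an unadjusted p below 0.05 there was 1 member, IGKV5-48, with a difference of 1.67 ± 0.775 on the log2 scale (unadjusted p = 0.0421, limma adjusted p = 0.496), the highest value of all genes tested. Without the library with 164 steps, 2 members were called, IGKV5-48 with 1.02 (adjusted p = 0.0327) and IGKV5-39 with -1.20 (adjusted p = 0.0288), beside 9.43% of all genes tested, 3 higher and 7 lower. Over the 33 alternatives tried, the adjusted p of IGKV5-48 was between 0.00251 and 1. It was below 0.05 in 3 ways of processing, namely without that library, with array weights and on percentages without a logarithm (adjusted p = 0.0271).

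The stage comparisons asked how use of the members changed from pro-B to pre-B cells, and they share their libraries with the genotype comparisons. Only the higher-numbered series holds both cell types, since the lower-numbered pro-B and pre-B libraries belong to different series, so stage and series are partly confounded. In *Wapl*(+/+) cells all 10 members had higher fitted values in pre-B cells, with a median log2 difference of 0.68, close to the median of 0.65 over all 105 genes tested. Of the members, IGKV12-41 (0.70 ± 0.212, limma adjusted p = 0.0355) and IGKV5-43 (0.89 ± 0.280, adjusted p = 0.0403) rose, and 0 fell. This is 2 of 10 where 19.0% of all genes tested were called, 8.57% as higher and 10.5% as lower. Without overlap, IGKV5-43, IGKV12-41, IGKV12-44 and IGKV5-45 were higher in every pre-B library, 4 of 10 where 24.8% of all genes were. IGKV12-44 took between 0.785% and 2.02% (median 1.57%) in pro-B cells against 2.10% to 2.32% in pre-B cells, with a log2 difference of 0.66 ± 0.267 (adjusted p = 0.108). Without the library with 164 steps, 8 of 10 members rose where 29 of all 106 genes tested, 27.4%, were called as higher and 15 as lower. The exceptions were IGKV5-37 (log2 difference 0.98, adjusted p = 0.0551) and IGKV12-98 (0.26, adjusted p = 0.497). Both calls with all libraries were lost when any 1 of the 4 pre-B libraries was left out (adjusted p from 0.0822 to 0.118) or pro-B replicate 4 or 6 (from 0.0603 to 0.0746), and that of IGKV5-43 also without pro-B replicate 3 (0.0562). Centring the libraries on their medians lowered the log2 differences by 0.35 and left 0 of the members called and no gene called as higher. With series as a covariate neither IGKV12-41 (log2 difference 0.82, limma adjusted p = 0.234) nor IGKV5-43 (1.02, adjusted p = 0.244) was called, and IGKV12-44 was the 1 member called (1.17, adjusted p = 0.028), where 3 of the 105 genes tested were called, 1 of them higher.

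In mutant cells the stage differences ran in both directions within the cluster. By limma 8 of 10 members rose from pro-B to pre-B cells and IGKV5-48 fell, while 54.0% of the 100 genes tested were called, 42.0% as higher and 12% as lower. Other families rose as often, with 6 of 7 VK6 and 9 of 10 VK8 genes called as higher, against 10 of 32 VK4 genes. The median log2 differences were 1.57 over VK6, 1.48 over VK8 and 0.33 over VK4, beside 0.91 over the members. IGKV5-37, 1 of the 8, passed the filter of 0.05% only through its pre-B mean of 0.109%, since its pro-B mean was 0.0446%. With series as a covariate 4 members remained called, all higher, namely IGKV5-39 (log2 difference 1.89, adjusted p = 0.00294), IGKV5-43 (1.30, adjusted p = 0.00294), IGKV12-41 (1.18, adjusted p = 0.025) and IGKV5-45 (0.90, adjusted p = 0.0129), where 19 of the 100 genes tested were called, 14 higher and 5 lower. The calls of IGKV12-44 (0.62, adjusted p = 0.0504), IGKV12-46 (0.46, adjusted p = 0.151), IGKV5-37 (1.06, adjusted p = 0.152) and IGKV12-98 (0.54, adjusted p = 0.358) were lost, as was that of IGKV5-48 (-0.30, adjusted p = 0.318). IGKV5-39 rose most, from 0.179% ± 0.052 (n = 6) in pro-B to 0.797% ± 0.115 (n = 4) in pre-B cells, with a log2 difference of 1.90 ± 0.247 (adjusted p = 2.33e-05). IGKV5-43 rose from 0.468% ± 0.133 to 1.43% ± 0.171 (1.55 ± 0.199, adjusted p = 2.33e-05) and IGKV12-41 from 0.351% ± 0.121 to 0.980% ± 0.125 (1.43 ± 0.269, adjusted p = 0.000408). IGKV5-37 (0.87, adjusted p = 0.038) lost its call when pro-B replicate 1 or 4 or any 1 pre-B library was left out (adjusted p from 0.0576 to 0.102), and IGKV12-98 (0.81, adjusted p = 0.0237) without pre-B replicate 1, 3 or 4 (from 0.051 to 0.0774). In 7 members, all higher, the pre-B libraries lay above all pro-B libraries, as in 33.0% of all genes tested.

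IGKV5-48 went the other way in the mutant, from 1.61% ± 0.216 in pro-B to 1.22% ± 0.096 in pre-B cells. The highest of the 4 pre-B libraries, 1.34%, overlapped the lowest of the 6 pro-B libraries, also at 1.34%. The log2 difference was -0.38 ± 0.134 (limma adjusted p = 0.0246), and leaving out mutant pre-B replicate 1, 2 or 3 gave adjusted p between 0.0563 and 0.0813. In *Wapl*(+/+) cells the log2 difference of the same gene was 1.30 ± 0.73 (adjusted p = 0.215), and 0.64 (adjusted p = 0.0473) without the library with 164 steps. Centring lowered all log2 differences of the mutant stage comparison by 0.61 and left 4 members called as higher, IGKV5-39 (1.30), IGKV5-43 (0.94), IGKV12-41 (0.82) and IGKV5-45 (0.45), and IGKV5-48 as lower (-0.99), where 19 of the 100 genes tested were higher and 33 lower. The share of higher genes among all called genes went from 77.8% to 36.5%.

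**Figure D5:**
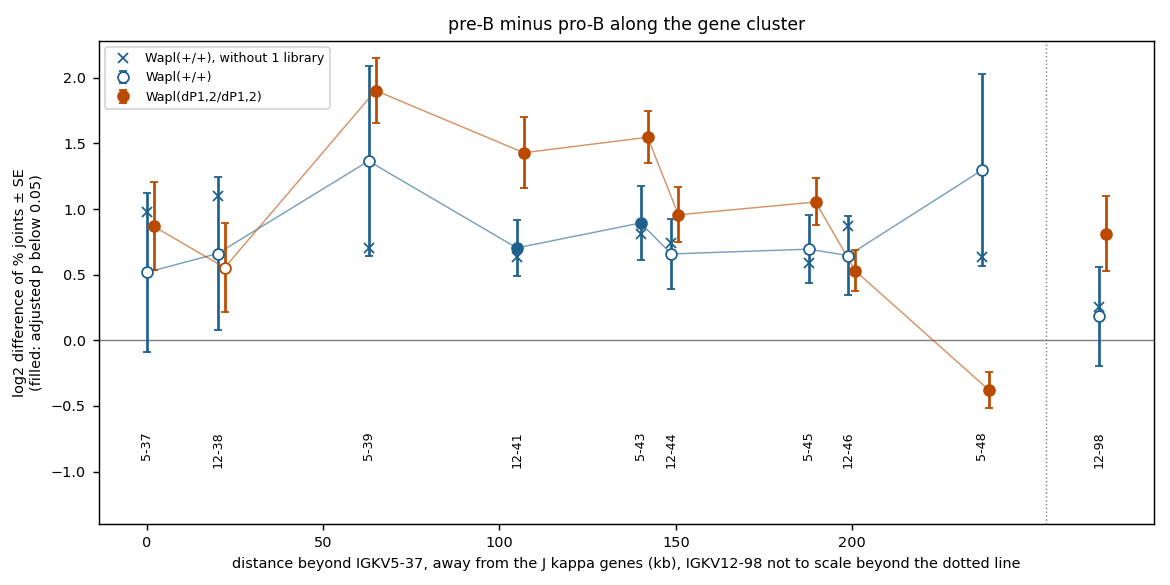
Log2 difference of the percentage of joints (limma, pre-B minus pro-B, ± SE, without series as a covariate) for the 10 genes against distance (kb) from IGKV5-37, with IGKV12-98 not to scale, in *Wapl*(+/+) (blue) and mutant cells (orange). Filled points have an adjusted p below 0.05, and crosses are *Wapl*(+/+) values without the library with 164 steps. In the mutant the values fall from 1.90 at IGKV5-39 to -0.38 at IGKV5-48.

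The other listed genes of these families were used rarely, with 2 exceptions. IGKV5-40-1, IGKV12-42, IGKV12-49, IGKV12-66 and IGKV12-67, all pseudogenes, were listed at 0 in all 20 libraries. In IGKV12-47, a pseudogene, the 7 bases after the listed gene end are CAAGTGA and not CACAGTG. The nonamer ACATAAACC begins at base 19 after that end and not at base 20 as in IGKV12-44, 1 base closer. The listed end, chr6:69700848, differs from the annotated end, chr6:69700850, so these windows depend on the end used. IGKV12-47 took 0.00706%, 0.00536%, 0.00195% and 0.0122% of joints in *Wapl*(+/+) pre-B cells. The pseudogene IGKV12-40, which has the same signal sequence as IGKV12-44, took 0.800% ± 0.024 in *Wapl*(+/+) pre-B cells, more than IGKV12-38, IGKV5-37 and IGKV12-98. Between its neighbours IGKV5-39 and IGKV12-41, it had log2 differences of -0.53 ± 0.103 between genotypes in pre-B cells (limma adjusted p = 0.0003) and of 2.00 ± 0.290 between stages in the mutant (adjusted p = 4.32e-05).

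IGKV12-89, the functional VK12 gene that was not a member, rose in mutant pre-B cells, where all 5 VK12 members and IGKV12-40 had values below 0. It lies 1128 kb beyond IGKV5-37, in reverse orientation, and took 0.572%, 0.620%, 0.645% and 0.648% of joints in *Wapl*(+/+) and 0.813%, 0.890%, 0.786% and 1.14% in mutant pre-B cells. The groups did not overlap, as for 20.6% of all genes tested in this direction, and it rose by 0.50 ± 0.105 on the log2 scale (limma adjusted p = 0.000543). In pro-B cells, where its highest *Wapl*(+/+) value, 0.886%, overlapped its lowest mutant value, 0.843%, it rose by 0.79 ± 0.234 (adjusted p = 0.0234). Of the genes that flank the cluster, IGKV18-36, on the JK-proximal side, fell in mutant pre-B cells (-0.76 ± 0.147, adjusted p = 0.000262), and IGKV4-50, on the distal side, had a log2 difference of -0.17 ± 0.090 (adjusted p = 0.116). Beside IGKV12-98, IGKV15-97 was listed at 0 in every library and IGKV1-99 fell in mutant pre-B cells (-0.45 ± 0.118, adjusted p = 0.00341). For these genes outside the members, single values under the alternatives are not given. In 1 fit of all 20 libraries, 5 of 107 genes were called as higher and 2 as lower in pre-B cells. IGKV12-40, IGKV18-36 and IGKV1-99 can therefore not all have kept their calls there.

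Among the genes of other families, the summed use of the 10 members over the 20 libraries was most like that of IGKV8-23-1 (Spearman rho = 0.89), IGKV8-24 (0.87), IGKV6-17 (0.87), IGKV8-16 (0.86) and IGKV4-73 (0.84), out of 101 genes compared. The 20 libraries hold 4 groups that differ in stage, genotype and number of steps, and these differences enter this measure. For comparison with whole families, the median log2 genotype difference in pre-B cells was -0.17 over 32 VK4, -0.30 over 9 VK6 and -0.40 over 10 VK8 genes tested, beside -0.20 over the members. In pro-B cells it was 0.18 over the VK4, -1.20 over 8 VK6 and -0.66 over 9 VK8 genes tested, beside -0.57 over the members.

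One H3K27ac ChIP-seq library of *Rag1*(Cre/Cre) pro-B cells gives peaks of this histone mark of active regulatory DNA. Its 17935 peaks held 1 between the first and the last listed VK gene, at chr6:69989959-69992717 in mm9. This peak lay 76.1 kb from IGKV5-37 and 312.8 kb from IGKV5-48, and no member lay within 10 kb of a peak. The library has no replicate and no score, so that peaks could not be ranked.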

How the data were processed

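Libraries of *Igk* VDJ-seq were made from genomic DNA with adapters that carry unique molecular identifiers and with JK primers, and were sequenced as paired ends. The authors deposited, for each library, 1 normalized score per VK gene, whose denominator is not named. The sums of these scores were between 0.0740 and 0.377 in pro-B and between 4.87 and 6.77 in pre-B libraries. Each score was therefore divided by the sum over all VK genes of its library and multiplied by 100, which gives the percentage of VK-JK joints and takes out any difference in the total frequency of joints. The aligner for VDJ-seq and the assignment of reads that fit several genes are not given in the sources used here. Of the tools in the submitters' processing notes, R 3.3.3 was used by the authors to display VDJ-seq results, and Bowtie2 2.2.9, SAMtools 1.4 and R 3.4.1 belong to the Hi-C processing, per the study's methods. The files list no counts, so depth is described by steps only, and no floor or counting interval was given.

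Groups were compared on log2(percentage + 0.05) with limma 3.58.1 (R 4.3.3, empirical Bayes with trend) over all VK genes with a mean of at least 0.05% in the libraries compared, with Benjamini-Hochberg adjustment and a threshold of 0.05. The pseudocount makes differences of rarely used genes smaller. The study used many t-tests, and limma took their place because of the small groups. Genes named were the 10 members, the other genes of both families, the nearest flanking genes and the 5 genes most like the members. The members, defined by name, and these other genes and the VK4, VK6 and VK8 lists were chosen with earlier results of these data known. The procedure was tested on simulated data. The alternatives were 2 other pseudocounts, 2 other filters, no logarithm, Holm adjustment, series as a covariate or alone, array weights, median centring, functional genes alone, leaving out the 2 most used genes, 1 fit of all libraries and each library left out. Signal sequences were read with pysam 0.24.0 from NCBIM37, the build of the gene positions. Beside the *Igk* libraries, only the H3K27ac peaks were used, and the *Igh* libraries and the remaining assays of the series were not.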

Additional observations from a re-analysis of the deposited data

Results flagged for a closer look

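In 5 of 52 groups of values, the highest or lowest library stood apart from the others of its group by Dixon's criterion, which chance alone meets in about 1 of 20 groups. In *Wapl*(+/+) pro-B replicate 2, the library with 164 steps, IGKV5-37 took 0.610% of joints where the next library had 0.0840%, and IGKV12-38 took 1.22% where the next had 0.214%. IGKV12-46 was low in mutant pro-B replicate 2, at 0.759% against 1.13% in the next library, and in mutant pre-B replicate 2, at 1.395% against 1.718%. IGKV12-98 was low in *Wapl*(+/+) pre-B replicate 4, at 0.470% against 0.546%.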

How the results depend on the processing

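Of 1626 values recomputed under an alternative, the values of single members kept their direction and their side of the threshold in 1114 cases, lost the call in 86, gained one in 55 and changed sign in 27. Counts of called genes stayed within 1.5 times in 183 cases and moved further in 75. Where no value below shows a cause, the cause was not tested.

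Leaving out 1 library at a time gave between 59 and 76 VK genes and 3 to 5 members called for the genotypes in pre-B cells, between 16 and 49 VK genes and 1 to 5 members in pro-B cells, between 3 and 44 VK genes and 0 to 8 members between stages in *Wapl*(+/+) cells, between 44 and 58 VK genes and 6 to 9 members in mutant cells, and between 2 and 10 VK genes and 0 to 2 members for the difference of differences. The high ends in pro-B and *Wapl*(+/+) cells came without *Wapl*(+/+) pro-B replicate 2. Single members that changed sign in this way were IGKV12-46 in pre-B cells (-0.096 to 0.016) and in pro-B cells (-0.074 to 0.28), IGKV12-38 in pro-B cells (-0.64 to 0.022), IGKV12-98 between stages in *Wapl*(+/+) cells (-0.0093 to 0.28), and, for the difference of differences, IGKV5-37 (-0.63 to 0.11), IGKV12-38 (-0.12 to 0.54) and IGKV12-46 (-0.011 to 0.34).

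Without the library under 1000 steps, 49 VK genes and 5 members were called in pro-B cells, 44 and 8 between stages in *Wapl*(+/+) cells, and 10 and 2 for the difference of differences. IGKV12-38 in pro-B cells went to 0.022 and IGKV5-37 in the difference of differences to 0.11. The correlation of the *Wapl*(+/+) stage difference with gene order went from r = 0.20 to -0.59. This alternative was, for the correlation, the composition of the cluster and the means within series, chosen after seeing the data.

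Holm adjustment left 44 VK genes called in pre-B cells, 7 and 0 members in pro-B cells, 3 and 0 members between stages in *Wapl*(+/+) cells and 27 and 5 members in mutant cells. One fit of all 20 libraries called 7 VK genes and 0 members in pre-B cells, 40 and 4 in pro-B cells, and 33 VK genes and 5 members between stages in the mutant. Array weights gave 49 VK genes and 5 members in pro-B cells, 63 and 9 between stages in *Wapl*(+/+) cells and 19 and 4 for the difference of differences, with IGKV5-37 at 0.022. Median centring left 22 VK genes and 1 member called in pro-B cells, 15 and 0 between stages in *Wapl*(+/+) cells (IGKV12-98 at -0.17), 52 and 5 in mutant cells (IGKV12-38 at -0.054, IGKV12-46 at -0.078), and 1 VK gene for the difference of differences (IGKV5-37 at 0.049, IGKV12-44 at 0.10, IGKV5-45 at 0.041). Percentages without a logarithm gave 33 VK genes and 4 members called in pro-B cells (IGKV12-46 at -0.053 percentage points), 39 VK genes and 6 members between stages in *Wapl*(+/+) cells (IGKV5-37 at -0.0028) and 6 VK genes and 1 member for the difference of differences (IGKV12-38 at -0.027). A pseudocount of 0.01 left 19 VK genes and 1 member called in pro-B cells, IGKV12-41.

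The lower-numbered series alone called 0 VK genes and 0 members in pro-B cells (IGKV12-46 at -0.15). The higher-numbered series alone had IGKV12-38 at 0.37 and IGKV12-44 at 0.43 in pro-B cells, 7 VK genes and 1 member called between stages in *Wapl*(+/+) cells, 18 and 4 in mutant cells, and 0 VK genes for the difference of differences (IGKV5-37 at 0.089, IGKV12-44 at 0.55). Series as a covariate gave 3 VK genes and 1 member in *Wapl*(+/+) and 19 and 4 in mutant cells. Without the 2 most used VK genes, 13 VK genes and 0 members were called between stages in *Wapl*(+/+) cells and 1 VK gene for the difference of differences. Rescaling without these genes raised the sum of the 10 members to 9.23% and 7.02% in *Wapl*(+/+) and mutant pro-B cells and to 12.7% and 11.3% in pre-B cells, the VK5 sum to 3.50% in mutant pro-B and 6.07% and 5.43% in pre-B cells, and the VK12 sum to 6.63% and 5.88% in pre-B cells.

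No paired analysis was possible because the labels give no replicate numbers, and the numbers used here follow accession order. In pro-B cells the coarse steps limit what can be seen of rarely used genes: members were at 0 in 3 values of *Wapl*(+/+) and 2 of mutant libraries, and IGKV5-37 was at 0 in 1 of 6 *Wapl*(+/+) and 2 of 6 mutant libraries. Values of IGKV5-43 and IGKV5-45 are best read together.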
